A study of Homo sapiens with 6 samples.

Results

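The genes described here encode the machinery that folds, checks and exports proteins in the endoplasmic reticulum (ER): chaperones, disulfide isomerases, ER-associated degradation (ERAD) factors, early secretory transport genes and the sensors of the unfolded protein response. They were chosen by function, with earlier results of these data known, as a list of 43 genes. Each was read by its brightest probe set that names the gene alone. Of the 43, 41 were measured in this way and all 41 lay above the signal filter, among 12206 measured genes in all. TXNDC5 and SYVN1 are read only by probe sets that name a further gene, so they were not analysed here. The cells were SKOV3, a long-established line from a human ovarian carcinoma whose labels read high grade serous, in 2 groups of 3 arrays. One group had been transfected for 24 h with 5 nM of a miR21 precursor, and the other for as long with a negative control precursor. Both groups carry replicate numbers 1, 2 and 3. Nothing in the labels says that these were separate cultures, so a p-value here speaks only of the spread among the arrays, which could be technical. Untransfected cells were not analysed here, so each difference is one between the 2 precursors.

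The ER folds membrane and secreted proteins with the help of the chaperone BiP (HSPA5), its J-domain partners and the lectins calnexin and calreticulin, while disulfide isomerases pair cysteines. Proteins that fail to fold are pulled back to the cytosol and degraded, and finished ones leave in COPII vesicles. When unfolded proteins accumulate, the sensors IRE1 (ERN1), PERK (EIF2AK3) and ATF6 raise the transcription of this machinery. ATF6 and XBP1 act on ER stress response elements in promoters, and PERK acts through the translation factor eIF2 and the transcription factors ATF4 and CHOP. 

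The agent and the promoter elements that were searched for in the members are shown first. The mature RNA of the transfected microRNA, as RefSeq lists it on GRCh38.p14, has its seed (bases 2 to 8) in capitals. The labels do not state the sequence of the precursor.
hsa-miR-21-5p: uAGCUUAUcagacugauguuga
Promoter windows of RefSeq (GRCh38.p14), which run from 250 bases before to 50 bases after each start site, were found for 38 of the 43 members and were searched on both strands. The ER stress response element ERSE (CCAAT, then 9 bases of any kind, then CCACG) stood in the windows of 8 members, XBP1, HSPA5, HSP90B1, CRELD2, PDIA6, ERO1B, CALR and CANX, and in those of 0.0916% of all 27305 genes with a window. ERSE-II (ATTGG, then 1 base, then CCACG) stood in those of HYOU1, SDF2L1 and HERPUD1, and in those of 0.0696% of all genes. The unfolded protein response element TGACGTGG stood in those of HYOU1, DNAJC10, TXNDC5 and TXNDC11 (0.927% of all genes). Its core TGACGT, which every such element also holds, stood in those of 9 members (9.64% of all genes). TGATGNAA, a composite motif of ATF4 that was added after the values were seen, stood in those of CREB3L2 and HERPUD1 (4.46% of all genes). A match is a description of the letters and not a site. As the members were chosen by function, their matches beside the shares of all genes are a description and were not tested. The following 5 stretches are shown because, among members with an ERSE, an ERSE-II or TGACGTGG, their genes had an unadjusted p under 0.05 in the comparison within replicate numbers described below, the first 3 higher and the last 2 lower with miR21. Capitals mark the motif, and in DNAJC10, SDF2L1 and CALR it reads on the opposite strand.
HSPA5 (chr9:125241371-125241429, minus strand, ERSE): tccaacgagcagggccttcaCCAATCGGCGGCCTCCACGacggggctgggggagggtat
HERPUD1 (chr16:56932005-56932055, plus strand, ERSE-II): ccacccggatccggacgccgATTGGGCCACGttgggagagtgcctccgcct
DNAJC10 (chr2:182716112-182716159, plus strand, TGACGTGG): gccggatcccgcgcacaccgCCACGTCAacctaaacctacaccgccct
SDF2L1 (chr22:21642094-21642144, plus strand, ERSE-II): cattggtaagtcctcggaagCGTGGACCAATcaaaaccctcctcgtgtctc
CALR (chr19:12938364-12938422, plus strand, ERSE): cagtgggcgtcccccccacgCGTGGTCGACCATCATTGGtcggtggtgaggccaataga

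The ER genes did not shift together. HSPA5, its co-chaperones DNAJB9 and DNAJC10, the ERAD scaffold gene HERPUD1 and the sensor gene ATF6 were higher with miR21 by 0.73 to 1.14 on the log2 scale, while the BiP partner gene SDF2L1 and the lectin gene CALR were lower, with differences of -0.64 and -0.42. None of these passed the adjusted test. Most of the folding enzymes, the degradation genes and the transport genes differed by little. The median log2 difference (miR21 minus control) of the 41 members was 0.04, against -0.01 over all 12206 genes, with 22 members above 0 and 19 below. For 34 members the difference was under 0.5 in size, a share of 82.9% against 78.8% of all genes. The plot of differences by replicate number shows every member.

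**Figure D1:**
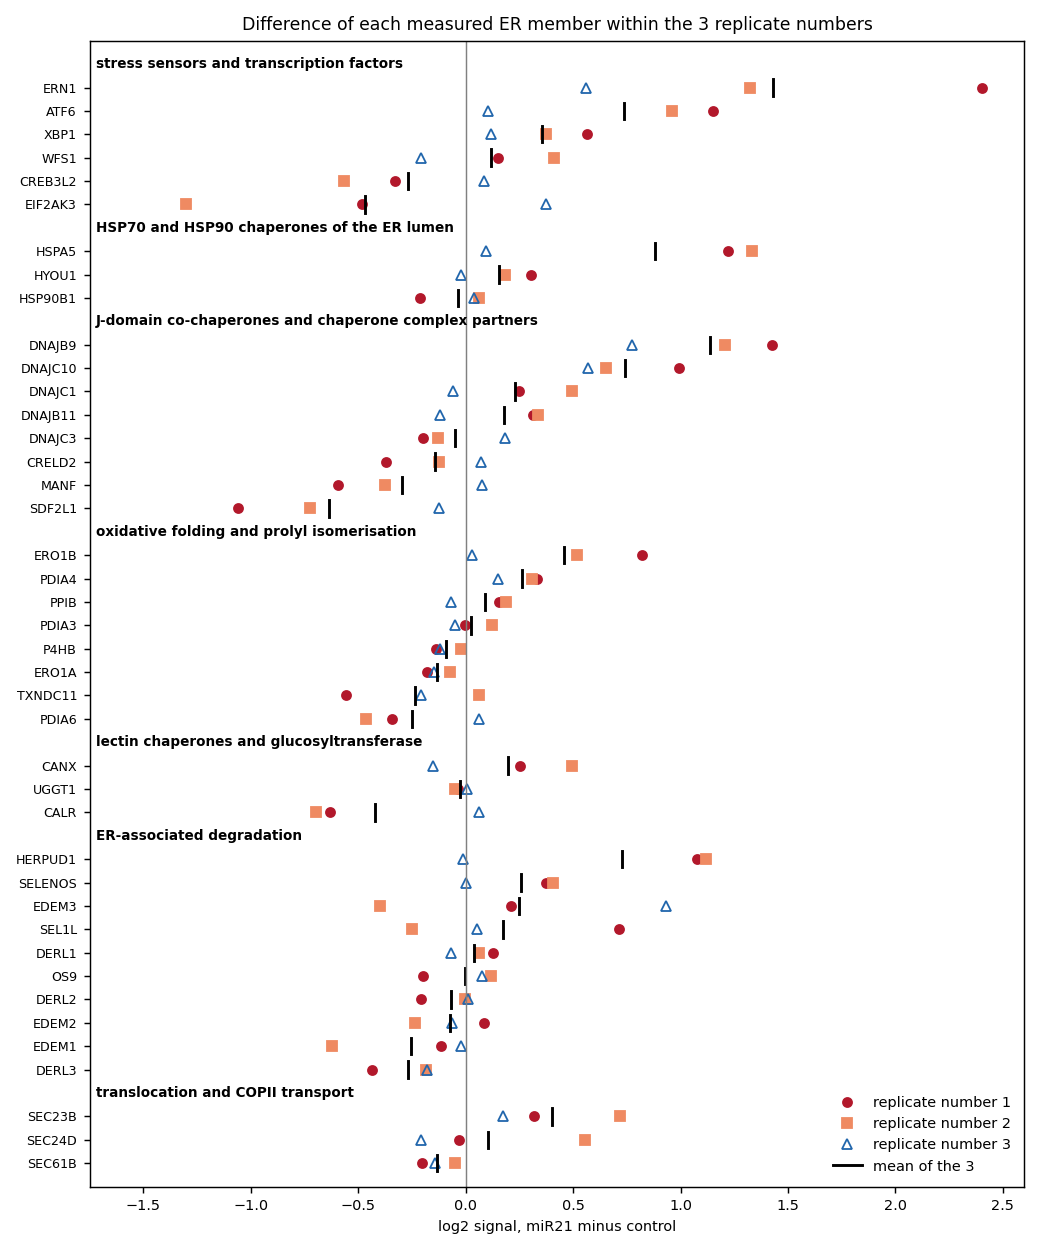
Difference in log2 signal (miR21 minus control, x axis) of the 41 measured ER members, grouped by role. Circles, squares and open triangles are replicate numbers 1, 2 and 3, and the black bar is their mean. ERN1, DNAJB9 and DNAJC10 lie right of 0 in all 3 numbers, whereas HSPA5, HERPUD1 and ATF6 lie well to the right in numbers 1 and 2 and near 0 in number 3.

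The test over all genes called no member. limma, with Benjamini-Hochberg adjustment over all 12206 genes, called 0 of the 41 members and 0 of all genes (0%) at an adjusted p under 0.05. At an unadjusted p under 0.05 it held 2 members, ERN1 and HSPA5, both higher, and 0 lower, against 1.18% of all genes higher and 1.26% lower. Same-numbered arrays of both groups shared their departures from the group mean, so the comparison was also made within replicate numbers, with the number as a block. This fit called 0 members, against 0.0328% of all genes higher and 0% lower. At an unadjusted p under 0.05 it held 7 members on the higher side (ERN1, ATF6, HSPA5, DNAJB9, DNAJC10, HERPUD1 and SEC23B), where 9.81% of all genes stood. On the lower side it held SDF2L1 and CALR, where 10.3% of all genes stood. The 3 miR21 values lay wholly above the 3 control values for 1 member, HSPA5 (3.38% of all genes), and wholly below for 0 members (3.27% of all genes). With quantile normalization the first count was 0 (3.88% of all genes). The difference had one sign in all 3 numbers for 9 members on the higher side (20.3% of all genes) and 6 on the lower side (20.9% of all genes). With each array centred on its median these counts were 18 and 2 (30.9% and 12.1% of all genes), so the split depends on the scaling.

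Of the sensor genes, ATF6 alone kept a positive difference under every alternative run and on every probe set above the filter. ERN1, which encodes IRE1, the kinase and RNase that splices XBP1 mRNA, had signals of 1032, 721 and 238 on the miR21 arrays of numbers 1, 2 and 3, against 195, 288 and 161 on the control arrays. It was higher in each number, and the groups overlapped only because miR21 replicate 3 lay below control replicate 2. The log2 difference was 1.43 (SE 0.58, adjusted p = 0.9999 in limma, and SE 0.34, adjusted p = 0.128 with the block). The direction rests on this probe set alone, since another ERN1 probe set above the filter differed by -0.43 and the third by -0.46. The former was lower with miR21 in each number, by -0.46, -0.36 and -0.45 in numbers 1, 2 and 3. ATF6, the sensor that is cleaved in the Golgi to release a transcription factor, had signals of 2515, 3539 and 1368 with miR21 and 1133, 1819 and 1274 with control. Its log2 difference was 0.74 (SE 0.41), with 1.15, 0.96 and 0.10 in numbers 1, 2 and 3. The groups overlapped, since miR21 replicate 3 lay below control replicate 2, and all 4 ATF6 probe sets were higher, by 0.27 to 0.74. EIF2AK3, which encodes PERK, had signals of 1062, 197 and 278 with miR21 and 1485, 485 and 215 with control. It was lower in numbers 1 and 2 and higher in number 3, with a log2 difference of -0.47 (SE 0.84). XBP1, the transcription factor downstream of IRE1, had signals of 2183, 817 and 564 with miR21, against 1474, 630 and 519 with control. It was higher in each number, by 0.57, 0.38 and 0.12 on the log2 scale (mean 0.35, SE 0.60, and SE 0.17, adjusted p = 0.287 with the block in limma), and the array does not separate its spliced form. CREB3L2, an ER-anchored transcription factor related to ATF6, differed by -0.27, and WFS1, an ER membrane protein gene mutated in Wolfram syndrome, by 0.12.

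Among the large lumenal chaperones only the BiP gene stood apart between the groups. HSPA5 had signals of 22031, 15851 and 10030.0 with miR21, against 9452, 6304 and 9381 with control. The lowest miR21 value was above the highest control value, and the gap came from numbers 1 and 2, where the differences were 1.22 and 1.33, against 0.10 in number 3. The mean difference was 0.88 on the log2 scale, a signal 1.84-fold higher (SE 0.36, adjusted p = 0.9999 in limma, and SE 0.24, adjusted p = 0.144 with the block). An exact two-sided permutation test over the arrays gave p = 0.1, the smallest that 3 arrays against 3 allow. Its dimmer probe set differed by 0.35, with 0.05, 0.85 and 0.16 in numbers 1, 2 and 3, so the rise in number 1 was seen on the brighter one alone. HSP90B1, the ER paralogue of HSP90, had signals of 2304, 2087 and 7180 with miR21 and 2666, 1996 and 6988 with control. Both groups were about equally high in number 3 and low in the other numbers, and the log2 difference was -0.04 (SE 0.62, and SE 0.13 with the block). Its probe set, like those of PDIA6 and CALR, is of a class (_x_at) that can bind related transcripts. HYOU1, the nucleotide exchange factor of BiP, had 5779, 4620 and 3384 with miR21 and 4686, 4071 and 3438 with control, a log2 difference of 0.15 (SE 0.30). The groups overlapped, and number 3 was the lowest in both.

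**Figure D2:**
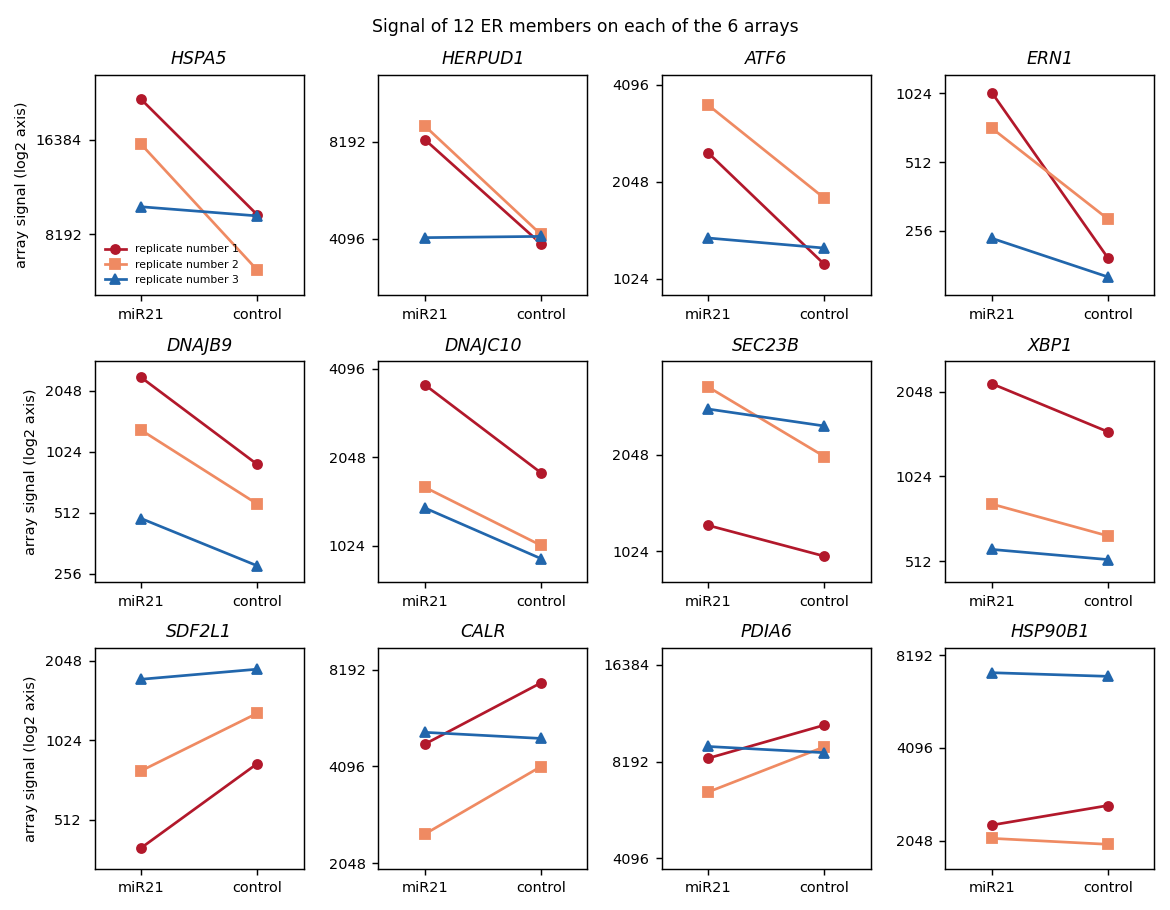
Array signal (log2 axis) of 12 ER members, one panel a gene, with miR21 left of control and a line joining the arrays of each replicate number. HSPA5, HERPUD1 and ATF6 slope down from miR21 to control in numbers 1 and 2 and are nearly flat in number 3, DNAJB9 and DNAJC10 slope down in all 3 numbers, and SDF2L1 and CALR slope up in numbers 1 and 2.

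The J-domain co-chaperones, which bring substrates to BiP and start its ATP hydrolysis, included the largest difference of the folding genes, that of DNAJB9, and the BiP partner gene SDF2L1, grouped with them, lay below 0. DNAJB9 (ERdj4), which also holds IRE1 in its inactive state, had signals of 2378, 1308 and 480 with miR21 and 887, 566 and 281 with control. It was higher in each number, by 1.42, 1.21 and 0.77 on the log2 scale, although the levels of the numbers differed so much that the groups overlapped. Its mean difference was 1.14 (SE 0.66, adjusted p = 0.9999 in limma, and SE 0.19, adjusted p = 0.0799 with the block, the lowest of the 41 members). DNAJC10 (ERdj5), a disulfide reductase that helps ERAD, had signals of 3609, 1620 and 1378 with miR21 and 1815, 1029 and 927 with control. It too was higher in each number, by 0.99, 0.66 and 0.57, with overlap between the groups and a mean of 0.74 (SE 0.46, and SE 0.15, adjusted p = 0.113 with the block in limma). All 4 of its probe sets above the filter were higher on average, by 0.32 to 0.86, and so were all 3 of DNAJB9, by 0.39 to 1.18. In number 3, however, a dimmer DNAJB9 probe set differed by -0.51 and a dimmer DNAJC10 probe set by -0.01. SDF2L1, a member of the BiP complex that keeps clients soluble, had signals of 401, 785 and 1743 with miR21 and 836, 1297 and 1903 with control. It was lower in each number, with differences of -1.06, -0.72 and -0.13, and the groups overlapped (mean -0.64, SE 0.57, and SE 0.21, adjusted p = 0.173 with the block in limma). MANF, a secreted BiP partner, differed by -0.30, and CRELD2, a stress-inducible ER protein gene, by -0.14. DNAJB11 (0.18), DNAJC1 (0.23) and DNAJC3 (-0.05), which encode the co-chaperones ERdj3, ERdj1 and p58IPK, had mixed signs between numbers.

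The 8 measured oxidative folding genes all differed by under 0.5 in size. ERO1B, an oxidase that recharges disulfide isomerases, had signals of 408, 380 and 177 with miR21 and 231, 266 and 173 with control. It was higher in numbers 1 and 2 and level in number 3 (mean log2 difference 0.46, SE 0.44). Its paralogue ERO1A differed by -0.13. PDIA4 had signals of 2400, 2568 and 4181 with miR21 and 1909, 2073 and 3765 with control, a log2 difference of 0.26 (SE 0.38). The isomerase gene PDIA4 was slightly higher in each number, within overlapping groups. PDIA6, a disulfide isomerase that attenuates IRE1 and PERK signalling, had 8392, 6592 and 9125 with miR21 and 10636, 9104 and 8730 with control. It was lower in numbers 1 and 2 and level in number 3 (mean -0.25, SE 0.26), and its 4 probe sets gave nearly the same value, from -0.29 to -0.25. The remaining members of the class were PDIA3 (0.02), P4HB (-0.09), the thioredoxin-domain gene TXNDC11 (-0.23) and the prolyl isomerase gene PPIB (0.09).

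The lectin chaperones, which hold glycoproteins that carry one glucose, were not alike in sign. CALR, the soluble lectin, had signals of 4804, 2524 and 5228 with miR21, against 7444, 4092 and 5004 with control. Its differences were -0.63 and -0.70 in numbers 1 and 2 and 0.06 in number 3, with overlapping groups and a mean of -0.42 (SE 0.39, and SE 0.18, adjusted p = 0.246 with the block in limma). All 3 of its probe sets were lower, with -0.53 to -0.42. CANX, its membrane-bound counterpart, had 12312, 24038 and 21524 with miR21 and 10323, 17054 and 23957 with control, a mean of 0.20 (SE 0.40), and 1 of its 4 probe sets above the filter had the other sign. UGGT1, the enzyme that puts the glucose back on misfolded glycoproteins, had 1365, 1937 and 2026 with miR21 and 1400, 2007 and 2020 with control, a mean of -0.03 (SE 0.31, and SE 0.14 with the block).

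In the ERAD class, HERPUD1 alone differed by more than 0.5. HERPUD1, a scaffold of the HRD1 ubiquitin ligase complex, had signals of 8329, 9181 and 4129 with miR21 and 3955, 4227 and 4166 with control. The signal was higher with miR21 by 1.07 and 1.12 on the log2 scale in numbers 1 and 2 and nearly equal in number 3, where the difference was -0.01, and the control arrays lay close together. The groups overlapped, as miR21 replicate 3 lay among the control values. The mean log2 difference was 0.73, a signal 1.66-fold higher (SE 0.35, adjusted p = 0.9999 in limma, and SE 0.23, adjusted p = 0.168 with the block). SEL1L, the adaptor of the same ligase, had 1978, 1152 and 916 with miR21 and 1207, 1369 and 883 with control. It was higher in number 1 and lower in number 2 (mean 0.17, SE 0.37), and 1 of its 4 probe sets above the filter differed by -0.42. SELENOS, a selenoprotein that anchors the ATPase p97 at the membrane, had 3490, 7557 and 5080 with miR21 and 2698, 5702 and 5083 with control (mean 0.26, SE 0.41). DERL3, a Derlin of the retrotranslocation channel, had 103, 205 and 189 with miR21 and 140, 233 and 214 with control (mean -0.27, SE 0.45). The mannose-trimming genes EDEM1, EDEM2 and EDEM3 differed by -0.25, -0.07 and 0.25, the Derlin genes DERL1 and DERL2 by 0.04 and -0.07, and the lectin gene OS9 by -0.0027. Among these, EDEM1 was lower in each number and the others had mixed signs.

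Of the transport genes, SEC23B was higher in every number. SEC23B, a COPII coat subunit, had signals of 1234, 3318 and 2836 with miR21 and 990, 2019 and 2512 with control, and 0.32, 0.72 and 0.17 were its log2 differences in numbers 1, 2 and 3 (mean 0.40, SE 0.50, and SE 0.16, adjusted p = 0.221 with the block in limma). Its 3 probe sets gave 0.40 to 0.42. SEC61B, a subunit of the translocation channel, had 8004, 7595 and 6435 with miR21 and 9222, 7870 and 7095 with control, a mean of -0.13 (SE 0.25). SEC24D, a COPII cargo adaptor, had 589, 43.4 and 39.2 with miR21 and 601, 29.6 and 45.2 with control. Its signals in number 1 were far above those in the other numbers in both groups, and the mean difference was 0.11 (SE 1.42).

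Most members, like most of all genes, had a wider range between replicate numbers than the size of their difference between precursors. The range between the 3 numbers, taken over the mean of both groups, exceeded the size of the difference for 38 of the 41 members, a share of 92.7% against 88.7% of all genes. The exceptions were ERN1, HSPA5 and HERPUD1, chosen after the values were seen. The median range was 0.96 log2 units, and the median size of the difference 0.23. EDEM3 spanned 3.91 log2 units between numbers, with signals of 877, 47.3 and 92.4 with miR21 and 757, 62.4 and 48.4 with control, and SEC24D spanned 4.06. CRELD2 spanned 2.55, with signals lowest in number 1 and highest in number 3 in both groups. Same-numbered arrays correlated at 0.954, 0.845 and 0.817 in their deviations from the group means over the 41 members (0.899, 0.638 and 0.635 over all genes), as a description across genes that share an array.

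**Figure D3:**
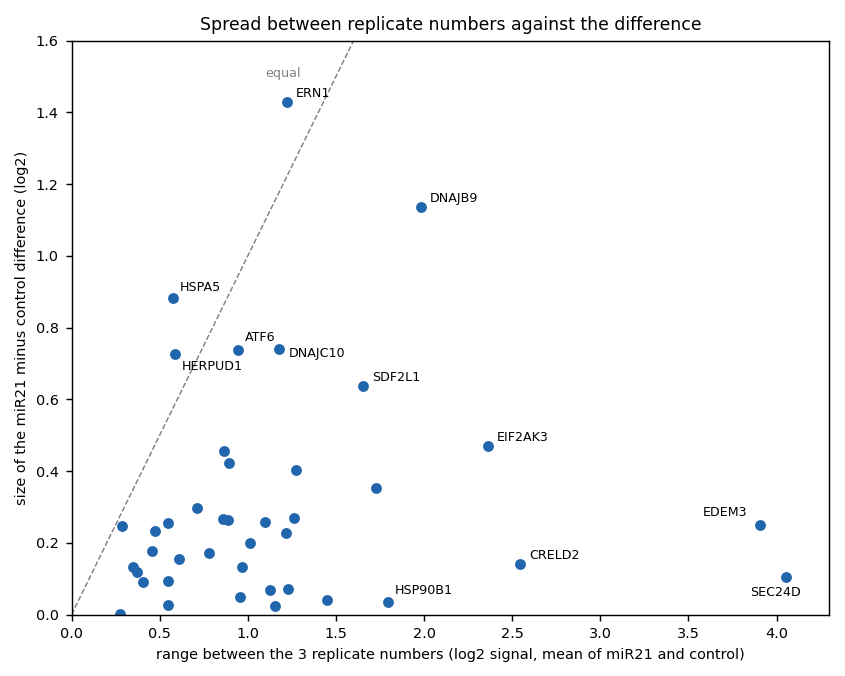
Range of each of the 41 members between the 3 replicate numbers (x axis, log2 signal averaged over both groups) against the size of its miR21 minus control difference (y axis, log2). Points right of the dashed line of equality had a range larger than their difference, as 88.7% of all genes did, and ERN1, HSPA5 and HERPUD1 lie to its left.

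Number 3 showed smaller differences than the other numbers for the members that differed most. HSPA5, ATF6 and HERPUD1 differed by 0.10, 0.10 and -0.01 in number 3, and DNAJB9, DNAJC10 and ERN1 by 0.77, 0.57 and 0.56. Whether these trios differ from each other was not tested, as each number has 1 array a group. Without both arrays of number 3, limma with the block called 17 members at an adjusted p under 0.05. Of these, 11 were higher, where 15.9% of all genes were called: ERN1, ATF6, XBP1, HSPA5, DNAJB9, DNAJC10, ERO1B, CANX, HERPUD1, SELENOS and SEC23B. The other 6, EIF2AK3, CREB3L2, SDF2L1, MANF, PDIA6 and CALR, were lower, where 16.9% of all genes were called. In that fit HSPA5 differed by 1.28 (SE 0.14, adjusted p = 2.10e-10), HERPUD1 by 1.10 (SE 0.13, adjusted p = 2.24e-09) and CALR by -0.66 (SE 0.13, adjusted p = 6.72e-05). It rests on 2 arrays a group and 1 residual degree of freedom per gene, and the 51.2 degrees of freedom behind these p-values come almost wholly from variance shared across genes. Number 3 is also the number in which HSPA5, HERPUD1 and CALR differed least, so leaving it out enlarges their differences by construction. These calls and p-values are thus no test of the members. Over all 6 arrays, limma with the block gave adjusted p = 0.144, 0.168 and 0.246 for these genes, in that order. Without both arrays of number 1 or of number 2, the same fit called 0 members, and 59 and 0 of all 12206 genes.

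Members that share a promoter element differed in sign among themselves. The 11 members with an ERSE or ERSE-II, all measured, had a median log2 difference of 0.15, with 6 higher and 5 lower. They ranged from -0.64 (SDF2L1) through -0.42 (CALR), -0.25 (PDIA6), -0.14 (CRELD2) and -0.04 (HSP90B1) to 0.15 (HYOU1), 0.20 (CANX), 0.35 (XBP1), 0.46 (ERO1B), 0.73 (HERPUD1) and 0.88 (HSPA5). Of these, SDF2L1, CALR, PDIA6, ERO1B, HERPUD1 and HSPA5 kept their sign under every alternative run. For SDF2L1, ERO1B and HERPUD1 these were 18 alternatives, and for CALR, PDIA6 and HSPA5 they were 20. HYOU1, CANX and XBP1 changed sign at least once, and HSP90B1 and CRELD2 lay under their standard error in the block fit, so they have no direction to report. The 25 measured members whose window held neither had a median of -0.0027 and ranged from -0.47 (EIF2AK3) to 1.43 (ERN1). The ERSE-II genes HERPUD1 and SDF2L1, whose elements are printed above, had opposite signs. The difference between these sets was not tested.

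The other genes of the pathway, in lists drawn up by function with earlier results of these data known, lay near the median of all genes over the 6 arrays. None passed limma with or without the block. Of 29 measured further ER folding genes the median was -0.03, of 26 oligosaccharyltransferase and N-glycan precursor genes -0.03, and of 24 signal recognition, translocon and signal peptidase genes -0.03. The median was 0.10 for 35 further ERAD genes, 0.07 for 32 further COPII and cargo receptor genes and 0.08 for 24 COPI and KDEL receptor genes. Some of these medians moved when 1 array was left out. That of the signal recognition list was -0.09 without control replicate 1 and 0.22 without miR21 replicate 1. That of the oligosaccharyltransferase list was -0.19 and 0.06 under the same settings. At an unadjusted p under 0.05 in the block fit, these 6 lists held 2, 1, 3, 4, 5 and 2 genes on the higher side and 3, 2, 2, 2, 4 and 1 on the lower side, in the order given, where 9.81% of all genes stood on the higher and 10.3% on the lower side. ERLIN2, an ER membrane scaffold gene in the degradation of IP3 receptors, had the smallest p of them in the block fit (log2 difference 1.46, SE 0.39, adjusted p = 0.9999 in limma, and adjusted p = 0.0686 with the block), with 1.34, 1.83 and 1.21 in the 3 numbers. BCAP29, an ER cargo receptor gene, differed by 1.07 and TMED5 by 0.76. FKBP14, an ER prolyl isomerase gene, differed by -1.16, the mannosyltransferase gene ALG12 by -0.98, and its pathway neighbour ALG2 by 0.76. SIL1 (0.89), SRP72 (0.43), SSR4 (0.67), USP25 (0.67), ARCN1 (0.57) and ARF5 (-0.47) were the other genes given by the rule of smallest unadjusted p without the block.

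**Figure D4:**
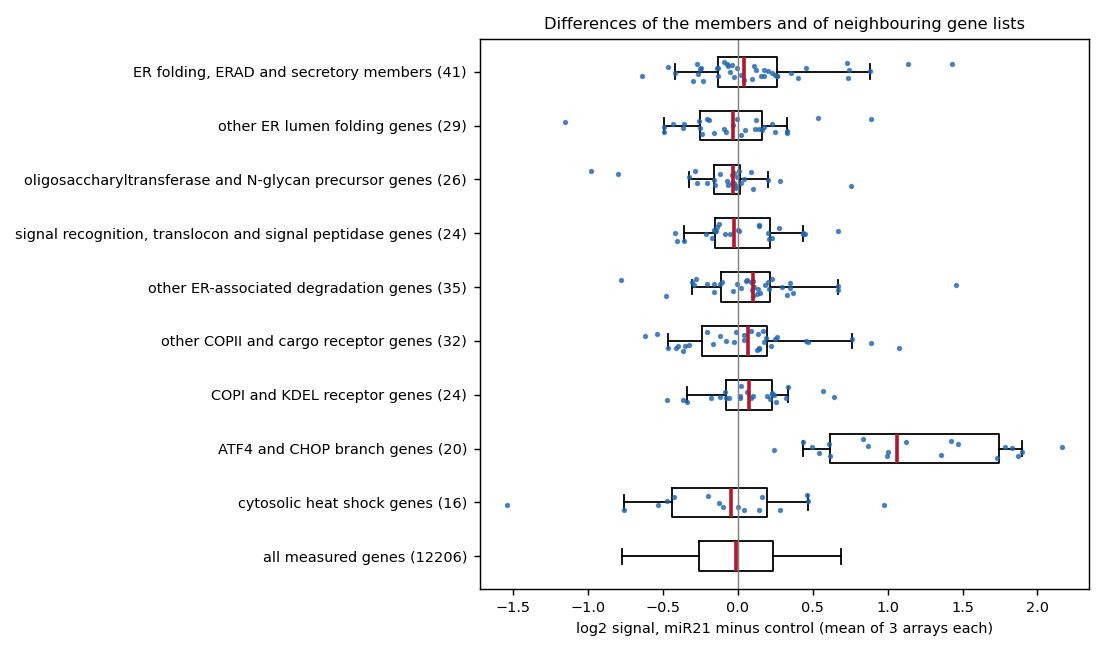
Log2 difference (miR21 minus control, x axis) of the ER members, of neighbouring gene lists and of all measured genes, with the number of genes in brackets. Points are genes, boxes the quartiles with the median in red, and whiskers run from the 5th to the 95th percentile. The ER members centre near 0, as all genes do, and the ATF4 and CHOP branch genes lie to the right.

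The ATF4 and CHOP branch, downstream of PERK and other eIF2 kinases, was described beside them because the sensor PERK acts through it. The list was drawn up with earlier results of these data known. All 20 measured genes were higher with miR21 on average, with a median of 1.06, and 16 of them held an unadjusted p under 0.05 in the block fit, where 9.81% of all genes stood on the higher side, with 0 past the adjusted threshold. Without the block 2 of them did in limma, where 1.18% of all genes stood on the higher side. The miR21 values lay wholly above the control values for 2 of them (3.38% of all genes). The median was 1.36, 1.51 and 0.10 in numbers 1, 2 and 3, so number 3 showed little of it. DDIT3, which encodes CHOP, had signals of 9112, 17572 and 725 with miR21 and 1552, 2489 and 618 with control, a difference of 1.87 (SE 1.13, adjusted p = 0.128 with the block in limma). Both groups were lowest in number 3. ATF4 itself differed by 0.62, SLC7A11, a cystine transporter gene, by 1.12, and DDIT4, an mTOR inhibitor gene, by 1.83. The lists' difference was not tested.

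Series-wide values bear on how these numbers can be read. All arrays had been scaled to a trimmed mean of 500, yet the median signal of number 1 was 117 with miR21 and 125 with control, against 55.2 to 61.8 on the other 4 arrays. The middle of the signal range was thus brighter in number 1 in both groups, and the part of this in the high signals of EDEM3 and SEC24D there was not tested. Of 13 SKOV3 and ovarian carcinoma markers 11 lay above the filter, among them ERBB2, KRT18 and PAX8, whereas the serous markers WT1 and MUC16 lay below it. Of 16 markers of blood, endothelial and other cells, 13 had a probe set naming the gene alone, and 1, PECAM1, lay above the filter. It did so through number 1, with signals of 397, 22.3 and 52.0 with miR21 and 483, 44.6 and 53.4 with control. The summed signal of those 13 markers was 1083, 319 and 256 with miR21 and 1390, 238 and 353 with control. No probe set used here reads mature miR-21, so the transfection itself was not checked here. In bulk RNA of this kind, fewer cells that express a gene and less RNA per cell cannot be told apart.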

How the data were processed

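RNA isolated from the transfected cells was turned into biotinylated cRNA for Affymetrix arrays, per the labels' protocols. Each probe set has 1 deposited value per array, an intensity signal on a linear scale that MAS5 computed, per the submitters' processing notes. The MAS5 version is not given in the sources used here. Each array's mean after trimming 2% at both ends is 500. Of 54613 probe sets other than controls, 41091 name 1 gene, 1801 several and 11721 none used here. The brightest single-gene probe set stood for each gene, and a gene was kept where its mean reached the middle of the probe set means (log2 6.03). Groups were compared with limma 3.58.1 in R 4.3.3 (log2 signal, no pseudocount, variance trend, Benjamini-Hochberg over 12206 genes), and the steps were tested on simulated data. Replicate numbers come from the sample titles. Every same-numbered pair correlated above 0.1 (0.899, 0.638 and 0.635), so values from a fit blocked on the number stand beside the counts they move. Between the groups, arrays of different numbers correlated at -0.754 to 0.411.

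The members and gene lists were chosen with earlier results of these data known. Signals on all arrays are given for HSPA5, HSP90B1, XBP1, ATF6, ERN1, EIF2AK3, CALR, CANX, SEL1L, HERPUD1, SEC61B and the 3 members of largest difference in each role. Of each further list the 2 genes of smallest unadjusted p are named, plus ATF4 and DDIT3. EDEM3 and CRELD2 were shown after their values were seen. Alternatives were other normalizations, offsets, filters, probe set rules, array weights, the block, and arrays left out. The number of arrays limits the precision.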

Additional observations from a re-analysis of the deposited data

How the results depend on the processing

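No alternative called a member except the fit with the replicate block without both arrays of number 3, which called 17, and the block over all 6 arrays changed no call (0 members called). The members' median log2 difference (0.04) was 0.14 with median centring (which moved the median of all genes to 0.089, against -0.01), 0.11 with array weights, 0.00019 with the mean of probe sets, -0.057 with the second brightest probe set and -0.00895 with the block without number 2, and it lay between -0.052 (without control replicate 1) and 0.19 (without miR21 replicate 1). The count of members wholly higher with miR21 (1) was 2 with median centring or without _s_at and _x_at probe sets, 0 with quantile normalization or the second brightest probe set, 1 to 6 without 1 array, and 3, 3 and 9 without both arrays of number 1, 2 and 3 (of all genes, 4.51% to 10.8% without 1 array, and 12.8%, 7.21% and 13.8%). The count wholly lower (0) was 2 with the mean of probe sets or the second brightest one, 1 without _s_at and _x_at probe sets, 0 to 3 without 1 array, and 3 and 3 without number 1 or 3 (of all genes, 4.71% to 10.8% without 1 array, and 13.3% and 15.8%). With fewer arrays, groups part more easily by construction. Members higher in all 3 numbers (9) were 18 with median centring and 4 with the second brightest probe set, and members lower in all 3 (6) were 2 with median centring, where 30.9% of all genes were higher and 12.1% lower.

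Of the 26 members whose difference exceeded its standard error in the block fit, 15 kept their sign under every alternative run, HSPA5, ATF6, DNAJB9, DNAJC10, HERPUD1, SDF2L1, CALR, PDIA6 and SEC23B among them. Not every alternative could measure each gene. HERPUD1, SDF2L1 and ERO1B were measured under 18 alternatives, and HSPA5 and CALR, for example, under 20. SEC23B fell to 0.0078 without control replicate 1. The other 11 changed sign at least once. ERN1 was -0.43 with the second brightest probe set, DERL3 0.10 with the mean of probe sets, and TXNDC11 0.050 with array weights. Leaving out 1 array gave -0.12 to 0.49 for CANX, -0.69 to 0.043 for CREB3L2, -0.49 to 0.042 for DERL3, -0.13 to 0.58 for DNAJC1, -1.20 to 0.26 for EIF2AK3, -0.43 to 0.18 for ERO1A, -0.029 to 0.36 for HYOU1, -0.073 to 0.54 for SELENOS and -0.21 to 0.81 for XBP1. The 15 members under their standard error have no direction to report, and each changed sign under at least 1 alternative. The causes were not tested.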

Other observations

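Cytosolic heat shock genes, the counterpart of the ER chaperones outside the secretory pathway, centred near 0 as well. Their 16 measured members had a median log2 difference of -0.05, with 8 higher and 8 lower and 0 past the adjusted threshold. DNAJB6, a cytosolic and nuclear J-domain protein gene, differed by 0.97 (1.23, 1.43 and 0.27 in numbers 1, 2 and 3), and its 3 miR21 values lay above the 3 control values. CRYAB, a small heat shock protein gene, differed by -1.54, with -1.76, -3.22 and 0.36 in the 3 numbers.

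Probe sets of one member did not always give one answer. Of the 29 members with several probe sets above the filter, 21 had the same sign in all of them, and 8 did not: CANX, DERL2, EDEM3, ERN1, PDIA3, SEL1L, UGGT1 and WFS1. The widest gap was that of ERN1, from -0.46 to 1.43.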
